A study of Sus scrofa with 4 samples.

Results

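The genes described here encode nuclear subunits of the mitochondrial respiratory chain and of ATP synthase. They were chosen by symbol alone, as the protein-coding rows whose names begin with the usual stems of complexes I to V or name succinate dehydrogenase or cytochrome c genes, and the rule uses no measured value, although the gene group was taken up with earlier results of these data known. The rule found 71 genes among the 29692 gene symbols of the deposited table, and it left out 1 pseudogene row of NDUFA4. By complex, 37 genes belonged to complex I, 4 to complex II, 2 to complex III, 10 to complex IV and 17 to complex V, and the remaining gene was CYCS. NDUFA4 and its relative NDUFA4L2 were placed with complex IV, because the NDUFA4 protein is known as a subunit of that complex despite its name. ATP5S and ATP5SL stayed with complex V by name, although neither encodes a structural subunit of the synthase.

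The respiratory chain passes electrons from NADH (complex I) or succinate (complex II) through complex III and cytochrome c to oxygen at complex IV, and pumps protons across the inner mitochondrial membrane. Complex V, the ATP synthase, lets the protons flow back and makes ATP. All complexes but complex II also contain subunits made from the mitochondrial genome, and in skeletal muscle the amount of these complexes is known to be higher in slow oxidative than in fast glycolytic fibres.

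RNA from muscle biopsies of 2 pig breeds that differ in muscularity, Hampshire and Mali, was sequenced, with 2 libraries per breed. No treatment or genetic alteration is named in the labels. Whether each library is a separate animal is not stated, so a p-value here reflects only how far these samples lie apart, which may be technical. Titles carry either no suffix (replicate 1 of each breed) or the suffix 1 (replicate 2 of each breed), and what the suffix stands for is not stated. The labels used here name neither the muscle nor the age or sex.

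Values are FPKM, fragments counted per length of gene and corrected for the number of mapped fragments. The FPKM of a library summed to between 516463 and 988614, and read totals are unknown. Genes of the mitochondrial genome took 42.5% of this sum in Hampshire replicate 1 and between 17.1% and 21.3% in the other libraries, which lowers the share left for nuclear genes. Fast-fibre contractile genes, which mark skeletal muscle, were all measured (12 of 12 tested), and their FPKM summed to 87664 and 105466 in Hampshire and to 52019 and 150514 in Mali. Every pair of values below gives replicate 1 and then replicate 2 of the named breed.

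The respiratory chain genes did not separate the breeds. Instead, the Mali libraries lay at the 2 ends of the range, with the Hampshire libraries between them. The median subunit had 189 and 147 FPKM in Hampshire, compared with 89.2 and 269 FPKM in Mali. Both Hampshire libraries were above Mali replicate 1 and below Mali replicate 2 for 52 of the 71 genes, where 11.5% of the 10075 genes tested showed that order. Rescaling each library to a common FPKM sum, a choice added after the data were seen, left 26 of 71 in that order, against 2.12% of all genes and 5.41% of other genes with a mean of at least 50 FPKM. It put both Hampshire libraries below both Mali libraries for 19 of 71, where 34.7% of all genes had that order. Mali replicate 1 was the lowest of the 4 libraries for 62 genes (25.2% of all genes tested), and Mali replicate 2 the highest for 59 (33.3%). Mali replicate 2 exceeded Mali replicate 1 for all 71 as deposited, against 53.4% of all genes tested, and for 61 of 71 after the same rescaling. Nearly all of the 71 are abundant, and the shares with these orders were higher among abundant genes than among all genes tested. Of 905 other genes with a mean of at least 50 FPKM, 247 had the Hampshire libraries between the Mali libraries (27.3%), 363 were lowest in Mali replicate 1, 477 were highest in Mali replicate 2 and 629 were higher in Mali replicate 2 than in replicate 1 (69.5%). In bulk tissue, fewer cells of a type and less RNA per cell cannot be told apart.

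On the log2(FPKM + 1) scale, Mali replicate 2 exceeded Mali replicate 1 by a median of 1.55 over the respiratory chain genes, with a range of 0.15 to 3.38, and by 0.056 over all genes tested. The 905 other genes with a mean of at least 50 FPKM, which leave out the mitochondrial genome, had a median difference of 0.52 between the same libraries, whereas the 66 respiratory chain genes at that level had 1.57. Regardless of sign, the median distance between the Mali libraries was 1.55 for the 71 genes, 0.76 for the 905 other abundant genes and 0.44 for all genes tested. Between the Hampshire libraries the median difference of the 71 genes, replicate 2 minus replicate 1, was -0.36, with -0.056 for all genes tested.

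**Figure D1:**
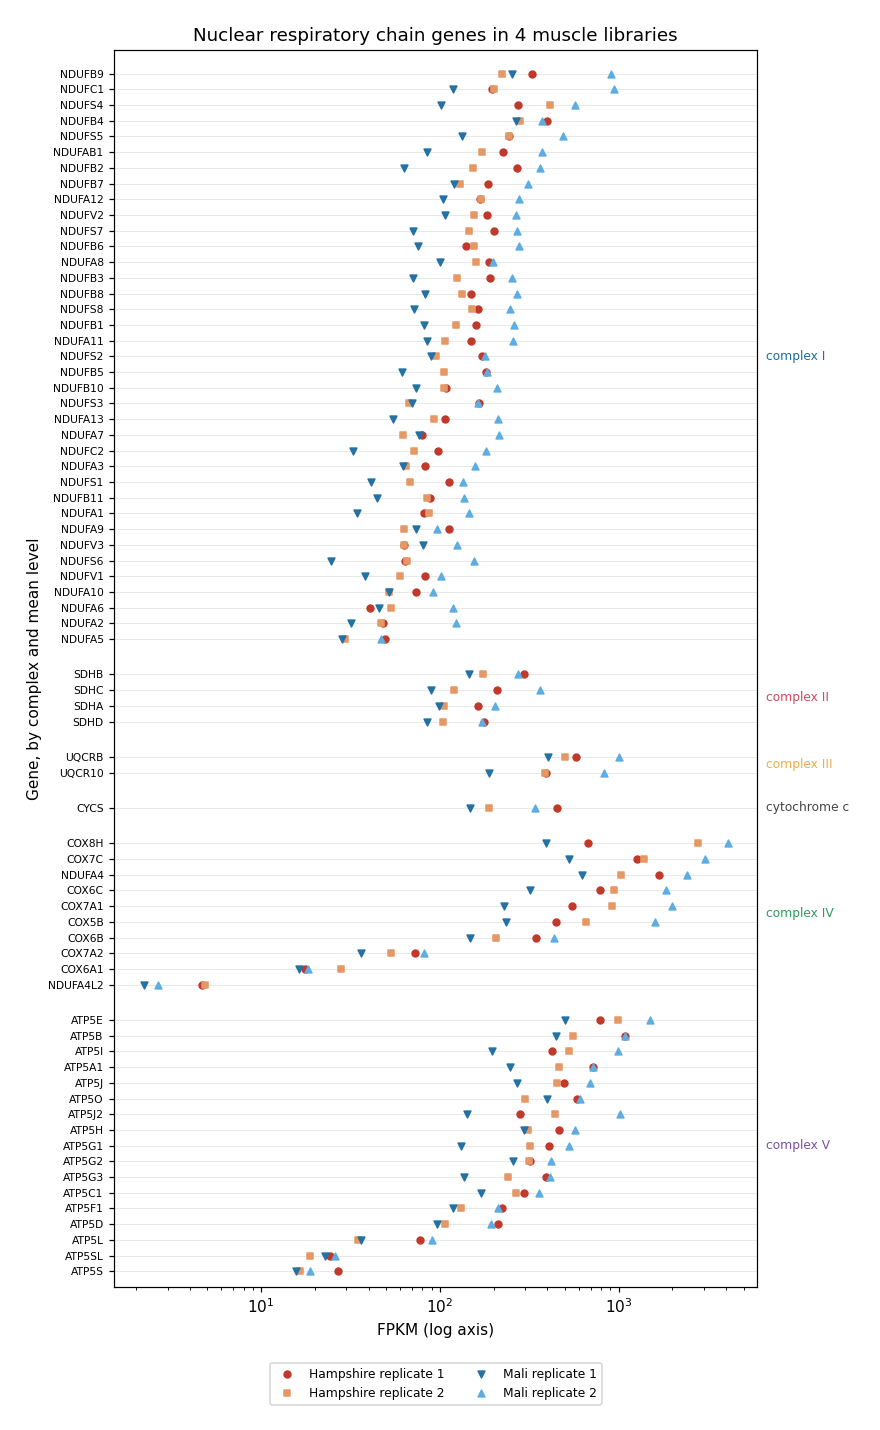
FPKM of the 71 genes on a log axis, 1 row per gene, ordered by complex and by mean level, with a red circle and an orange square for Hampshire replicates 1 and 2 and a dark downward and a light upward triangle for Mali replicates 1 and 2. The dark triangle is leftmost in 62 rows and the light triangle rightmost in 59.

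Complex I takes electrons from NADH, and its nuclear core consists of 7 flavoprotein and iron-sulphur subunits. All 7 were higher in Mali replicate 2 than in replicate 1, and 6 of them had both Hampshire libraries in between. NDUFV1, which binds NADH and the flavin cofactor, had 82.8 and 60.2 FPKM in Hampshire, compared with 38.2 and 102 FPKM in Mali. NDUFS1, the largest iron-sulphur subunit, had 113 and 68.1 FPKM in Hampshire, compared with 41.0 and 135 FPKM in Mali. The exception to the order was NDUFS3, a subunit of the quinone-reducing part, with 165 and 67.5 FPKM in Hampshire and 70.3 and 163 FPKM in Mali. There Hampshire replicate 2 fell just below Mali replicate 1, and Hampshire replicate 1 just above Mali replicate 2. These core genes, like the other subunits singled out below without mention of level, separation or isoform, were picked after their values were seen.

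The 30 accessory subunits of complex I surround this core, and many of them are needed for its assembly or stability. Of the 30 genes, 23 had the same order of libraries. The complex I genes with the highest mean level were NDUFB9 and NDUFC1, both accessory subunits of the membrane arm, and both stood apart by their level in Mali replicate 2. NDUFC1 (chromosome 8, 87695273 to 87700024, Sscrofa11.1) had 196 and 201 FPKM in Hampshire, compared with 118 and 937 FPKM in Mali. NDUFB9 had 329 and 224 FPKM in Hampshire, compared with 253 and 905 FPKM in Mali. NDUFC1 thus was 7.94-fold higher in Mali replicate 2 than in replicate 1 while the Hampshire libraries differed 1.03-fold. The least difference between the Mali libraries in complex I was found for NDUFA9, an accessory subunit near the quinone site, with 113 and 63.4 FPKM in Hampshire and 73.4 and 97.0 FPKM in Mali.

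NDUFA7 had the largest log2 difference between the breeds of all 71 genes, -0.85 with a standard error of 0.61 (limma, adjusted p = 0.88). This accessory subunit was measured at 79.7 and 62.6 FPKM in Hampshire, against 76.6 and 214 FPKM in Mali, so only Mali replicate 2 stood apart. NDUFA6, an accessory subunit, had 40.4 and 53.3 FPKM in Hampshire, against 46.0 and 119 FPKM in Mali, with a similar outlying library.

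In complex I the breeds were separated for a single gene. NDUFV3 (chromosome 13, 206111337 to 206123987), an accessory subunit of the NADH-binding part, had 63.4 and 63.3 FPKM in Hampshire, compared with 80.3 and 124 FPKM in Mali. Both Hampshire libraries were thus below both Mali libraries, as for 23.6% of all genes tested. Its mean was 63.4 ± 0.101 FPKM in Hampshire and 102 ± 31.1 FPKM in Mali (SD, n = 2 each). The log2 difference was -0.65 with a standard error of 0.49, and it did not pass (limma, adjusted p = 0.882).

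Complex II, succinate dehydrogenase, oxidises succinate in the tricarboxylic acid cycle and is made from nuclear genes alone. Its flavoprotein SDHA had 164 and 105 FPKM in Hampshire, compared with 99.0 and 203 FPKM in Mali. The iron-sulphur subunit SDHB had 297 and 174 FPKM in Hampshire, compared with 146 and 275 FPKM in Mali. All 4 genes were lowest in Mali replicate 1, but Hampshire replicate 1 exceeded Mali replicate 2 for SDHB and SDHD. Of the membrane anchors, SDHC had 209 and 120 FPKM in Hampshire, compared with 89.0 and 363 FPKM in Mali. SDHD had 176 and 104 FPKM in Hampshire, compared with 84.7 and 173 FPKM in Mali. SDHC therefore had a 4.08-fold difference between the Mali libraries, against 1.88-fold to 2.05-fold for the other 3 subunits.

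Complex III hands electrons from ubiquinol to cytochrome c, and 2 of its small subunits matched the rule. No row matched under the symbol CYC1 or another UQCR symbol, so complex III stands here for these 2 small subunits alone. UQCRB, which contributes to the ubiquinone site, had 578 and 503 FPKM in Hampshire, compared with 401 and 1005 FPKM in Mali. UQCR10 had 395 and 388 FPKM in Hampshire, compared with 188 and 826 FPKM in Mali. In both genes the Hampshire libraries lay between the Mali libraries. Cytochrome c itself (CYCS), the soluble carrier to complex IV, had 452 and 188 FPKM in Hampshire, compared with 147 and 342 FPKM in Mali, so here Hampshire replicate 1 was highest.

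Complex IV, cytochrome c oxidase, reduces oxygen to water, and several of its nuclear subunits exist in forms that differ between tissues. No row matched under a COX4I symbol or COX5A, so the complex is covered in part. The heart and muscle forms COX8H and COX7A1 had the largest distances between the Mali libraries of all 71 genes. COX8H (chromosome 2, 69199 to 70730), the heart and muscle form of subunit 8, had 672 and 2769 FPKM in Hampshire, compared with 390 and 4068 FPKM in Mali. COX7A1 (chromosome 6, 45519225 to 45520721), the heart and muscle form of subunit 7a, had 550 and 924 FPKM in Hampshire, compared with 229 and 1996 FPKM in Mali. Both were highest in Mali replicate 2 and second highest in Hampshire replicate 2.

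The widely expressed forms COX7A2 and COX6A1 lay closer together in the Mali libraries. This did not hold for all such subunits. The 5 widely expressed or single-form subunits of complex IV had a median difference of 2.52 between the Mali libraries on the log2 scale. COX7A2, which replaces COX7A1 in most other tissues, had 72.4 and 53.6 FPKM in Hampshire, compared with 36.3 and 82.0 FPKM in Mali. COX7A1 exceeded COX7A2 by a ratio of 7.60 and 17.2 in Hampshire, against 6.32 and 24.3 in Mali. This ratio does not depend on library scaling, and it was higher in replicate 2 of both breeds. COX6A1, the widely expressed form of subunit 6a, had 17.5 and 27.9 FPKM in Hampshire, compared with 16.3 and 18.2 FPKM in Mali, and had the smallest distance between the Mali libraries of all 71 genes. COX5B and COX7C lay farther apart in the Mali libraries. COX5B, which binds zinc, had 445 and 660 FPKM in Hampshire, against 234 and 1594 FPKM in Mali. Complex IV subunit COX7C had 1263 and 1391 FPKM in Hampshire, compared with 530 and 3034 FPKM in Mali.

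NDUFA4L2 was the only gene of the 71 with both Hampshire libraries above both Mali libraries, as for 13% of all genes tested. This relative of NDUFA4, known in human cells as a target of the hypoxia-inducible factor, had 4.68 and 4.84 FPKM in Hampshire, compared with 2.20 and 2.66 FPKM in Mali. It had the lowest mean level of all 71 genes, with 4.76 ± 0.119 FPKM in Hampshire and 2.43 ± 0.323 FPKM in Mali (SD, n = 2 each). The log2 difference was 0.75 with a standard error of 0.32, which did not pass (limma, adjusted p = 0.708). NDUFA4 itself had 1681 and 1037 FPKM in Hampshire, compared with 620 and 2403 FPKM in Mali, the same order as most members.

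Complex V consists of a catalytic head, a ring of c subunits in the membrane, and stalks that join them. The 5 genes of the F1 part, the catalytic head with its central stalk, had positive log2 differences as deposited, by at most 0.45. Of these, only ATP5B and ATP5E were looked at singly under other scalings, and both turned negative after rescaling to a common sum. Beta subunit ATP5B, which carries the catalytic sites, had 1080 and 554 FPKM in Hampshire, compared with 449 and 1080 FPKM in Mali. ATP5E, the smallest subunit of the F1 part, had 789 and 993 FPKM in Hampshire, compared with 501 and 1503 FPKM in Mali. Both had the Hampshire libraries between the Mali libraries, and for ATP5B Hampshire replicate 1 and Mali replicate 2 were level.

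The c subunit is encoded by ATP5G1, ATP5G2 and ATP5G3, whose products differ only in the targeting sequence that is removed on import. Summed, they were at 1115 and 876 FPKM in Hampshire, against 523 and 1359 FPKM in Mali. ATP5G2 held 28.5% and 36.1% of this sum in Hampshire, against 48.9% and 31.0% in Mali. Of the 7 other stalk and membrane subunits, the small membrane subunit ATP5J2 differed most between the Mali libraries, with 282 and 442 FPKM in Hampshire and 142 and 1012 FPKM in Mali. ATP5S and ATP5SL carry the name without being subunits. ATP5S had 27.1 and 16.6 FPKM in Hampshire, compared with 15.6 and 18.8 FPKM in Mali, and ATP5SL had 24.3 and 18.9 FPKM in Hampshire, compared with 22.8 and 26.1 FPKM in Mali. Their Mali libraries differed by 1.20-fold and 1.14-fold, less than those of the 15 other complex V genes.

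None of the 71 genes passed the test for a breed difference. With limma and Benjamini-Hochberg adjustment over all genes tested, 0 of 71 had an adjusted p under 0.05, where 0% of all genes did, and the lowest adjusted p among them was 0.708. An unadjusted p under 0.05 was reached by 0 of 71 genes, against 7.09% of all genes tested. With title suffix as a term in the fit, which called 2.59% of all genes, 0 of the 71 passed as well. Log2 differences, Hampshire minus Mali, ran from -0.85 to 0.75 with standard errors of 0.32 to 1.18. Of them, 42 were positive and 29 negative, against 3982 positive and 6093 negative among all genes tested. A missed threshold at these standard errors does not show that the breeds were equal. In the authors' deposited table, the lowest q-value among the 71 genes was 0.442, for NDUFC1, and 0 of the 71 were among the 65 genes marked there as significant.

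The median log2 difference of the 71 genes was 0.063, against -0.12 for all genes tested. Its sign depended on the scaling, with -0.28 after rescaling to a common sum, -0.0017 after the same rescaling without mitochondrial genes, 0.199 with median-of-ratios size factors and 0.21 with quantile normalization. The medians over all genes in these settings were -0.40, -0.17, -0.0083 and -0.047. The median of the 71 genes was -0.13 without Hampshire replicate 1, 0.19 without Hampshire replicate 2, -0.71 without Mali replicate 1 and 0.78 without Mali replicate 2, so its sign changed when either replicate 1 was left out.

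The breed difference took opposite signs in the 2 sets of libraries that share a title suffix. Between the libraries with no suffix, the median log2 difference of the 71 genes, Hampshire minus Mali, was 0.93, and 69 genes were higher in Hampshire. Between the libraries with suffix 1 it was -0.92, and 69 genes were lower in Hampshire. Both held for 67 of the 71 genes, where 25.5% of all genes tested and 445 of the 905 other abundant genes (49.2%) showed this combination. It was also found for 13 of 14 tricarboxylic acid cycle and 8 of 12 fast-fibre genes. The 4 exceptions were COX6A1 and NDUFA4L2, higher in Hampshire in both, and NDUFA6 and NDUFV3, lower in both. After rescaling to a common sum 37 genes were higher in the first set and 68 lower in the second, so the count in the first set depended on the scaling.

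**Figure D2:**
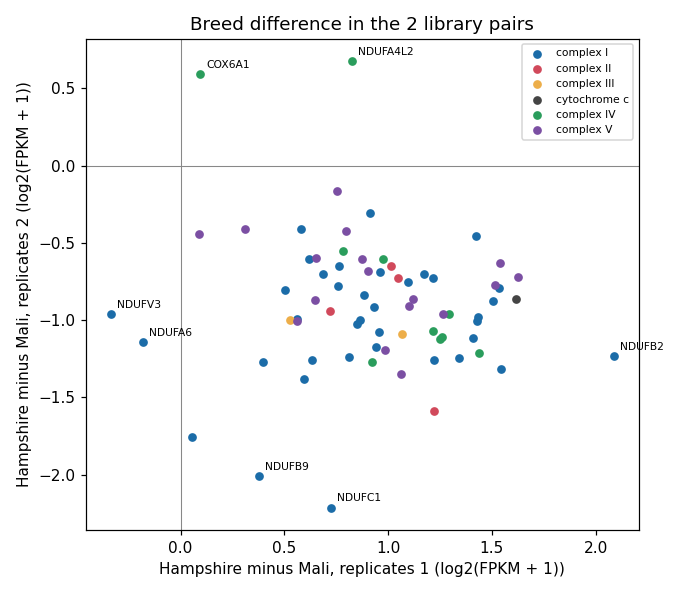
Log2(FPKM + 1) difference, Hampshire minus Mali, between the libraries with no title suffix (replicates 1, horizontal axis) and those with suffix 1 (replicates 2, vertical axis), 1 point per gene coloured by complex. The 67 points at the lower right are higher in Hampshire in the first set and lower in the second; COX6A1 and NDUFA4L2 lie at the upper right, NDUFA6 and NDUFV3 at the lower left.

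By complex, the breed medians were close to 0 beside the spread of the libraries. Median log2 differences as deposited were 0.0060 for complex I, 0.024 for complex II, -0.12 for complex III, 0.11 for complex IV and 0.11 for complex V. After rescaling to a common sum they were -0.34, -0.32, -0.47, -0.23 and -0.23 in the same order, and with median-of-ratios size factors 0.14, 0.16, 0.013, 0.25 and 0.25, so no direction held across scalings for any complex. Within either set of libraries the complexes had the same sign, from 0.80 for complex III to 1.10 for complex IV with no suffix, and from -1.04 for complex III to -0.72 for complex V with suffix 1.

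Complexes differed more clearly in how far their libraries lay apart. The median difference between Mali replicate 2 and replicate 1 was 2.23 on the log2 scale for complex IV, 1.73 for complex III, 1.60 for complex I, 1.27 for complex V and 1.02 for complex II. Between Hampshire replicate 2 and replicate 1 it was 0.20 for complex IV and negative for the others, from -0.11 for complex III to -0.76 for complex II. The median complex IV gene had 498 and 792 FPKM in Hampshire, compared with 232 and 1717 FPKM in Mali. The median complex II gene had 193 and 112 FPKM in Hampshire, compared with 94.0 and 239 FPKM in Mali.

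**Figure D3:**
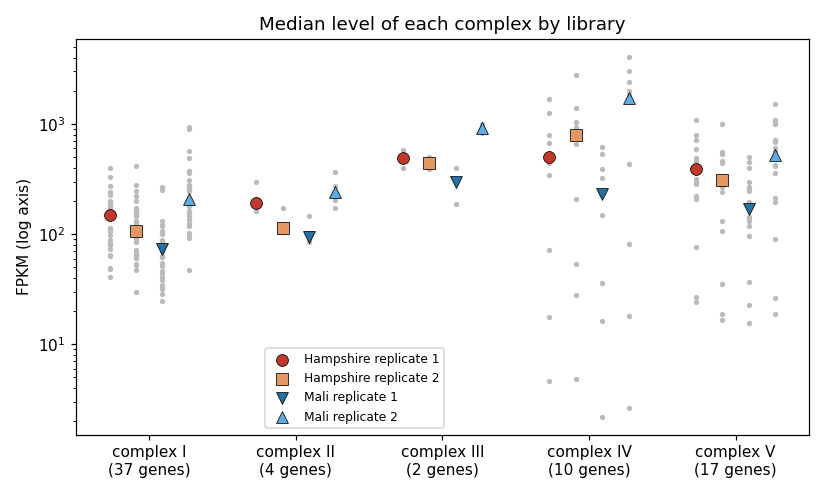
FPKM on a log axis for the genes of each complex (grey points) and their median (large symbols) in Hampshire replicates 1 and 2 and Mali replicates 1 and 2, from left to right within a complex. The medians of complex IV run from 232 to 1717 FPKM in the Mali libraries, and those of complex II from 94.0 to 239 FPKM.

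The level of complex IV relative to complexes I and II was higher in the libraries with suffix 1 than in those without, in both breeds. The difference of the log2 medians of complex IV and complex II, which needs no library scaling, was 1.37 and 2.80 in Hampshire, against 1.30 and 2.86 in Mali. For complex IV minus complex I it was 1.72 and 2.89 in Hampshire, against 1.66 and 3.02 in Mali. Complex V minus complex I varied less, with 1.38 and 1.56 in Hampshire, against 1.22 and 1.32 in Mali. Complex IV genes took 28.4% and 40.7% of the summed FPKM of the 71 genes in Hampshire, against 24.9% and 41.0% in Mali, whereas complex I took 27.4% and 23.3% in Hampshire and 29.6% and 25.6% in Mali. The Hampshire share of complex IV rested largely on COX8H, which held 672 and 2769 of its 5837 and 8020 FPKM. In Hampshire 7 of 10 complex IV genes were higher in replicate 2, while COX6B, COX7A2 and NDUFA4 were lower. No test was made of these ratios, because 2 libraries a breed cannot give an exact two-sided p under 0.333.

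Across the 71 genes, the library difference in Hampshire and that in Mali had Pearson's r = 0.49 and Spearman's rho = 0.43. The value is a description over genes, which share their libraries and are not independent replicates, and the 905 other genes with a mean of at least 50 FPKM had r = 0.42. Genes with a higher value in replicate 2 of both breeds numbered 18, among them 7 of the 10 complex IV genes. Since all 71 were higher in Mali replicate 2, this is the count that was higher in Hampshire replicate 2. In Hampshire, 4652 of the 10075 genes tested and 313 of the 905 other abundant genes were higher in replicate 2.

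**Figure D4:**
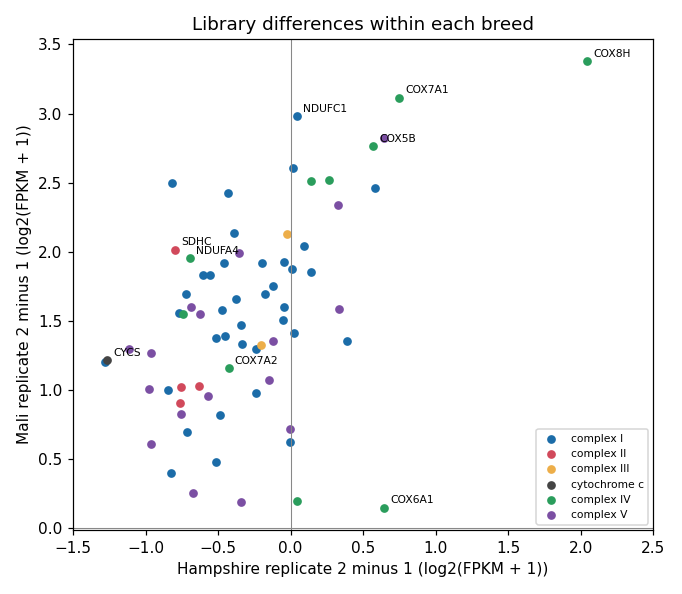
Log2(FPKM + 1) difference of replicate 2 minus replicate 1 in Hampshire (horizontal axis) and in Mali (vertical axis), 1 point per gene coloured by complex. All 71 points lie above 0 on the vertical axis, 18 lie right of 0 on the horizontal axis, and COX8H lies farthest to the upper right.

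As a share of the summed FPKM of all nuclear genes, which does not depend on the mitochondrial transcripts, the 71 genes took 3.62% and 3.31% in Hampshire, against 2.44% and 5.09% in Mali. The Mali libraries thus again enclosed the Hampshire libraries. The 13 protein genes of the mitochondrial genome did not follow this order. Their median was 23047 and 8850 FPKM in Hampshire, against 5420 and 8351 FPKM in Mali, and 1 of 13 had the Hampshire libraries between the Mali libraries. Their median log2 difference was 0.97, and 12 of 13 were positive, against 3982 of the 10075 genes tested. The gene with the lowest unadjusted p among them was ATP8, with 57793 and 31463 FPKM in Hampshire, against 18.5 and 5078 FPKM in Mali (limma, adjusted p = 0.574, and 0.00075 with title suffix as a block). ATP8 is very short and overlaps ATP6, so reads of the pair cannot be told apart without knowing how they were counted.

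Enzymes of the tricarboxylic acid cycle, which feed the chain, showed part of the pattern. Of 14 tested, 13 were higher in Mali replicate 2 than in replicate 1 (median difference 0.85), and 7 had the Hampshire libraries in between. For assembly factors, which help build the complexes without remaining in them, the order was found for 3 of 15 tested factors of complex I, 2 of 6 of complexes II and III, 2 of 11 of complex IV and 1 of 5 of complex V, and their median differences between the Mali libraries were 0.32, 0.40, 0.57 and 0.61. That order was found for 11.5% of all genes tested and 27.3% of the 905 other genes with a mean of at least 50 FPKM. The median complex I factor had only 5.62 and 4.69 FPKM in Hampshire, against 4.53 and 6.70 FPKM in Mali. For complex IV factors it was 29.2 and 15.4 FPKM in Hampshire, against 26.4 and 18.9 FPKM in Mali, so factors and subunits were not matched in level. The complex II assembly factor SDHAF1 had 2.43 and 2.25 FPKM in Hampshire, compared with 3.41 and 10.9 FPKM in Mali.

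Transcriptional regulators of mitochondrial genes did not follow the subunits. Of 15 tested, 6 were higher in Mali replicate 2 than in replicate 1, against 53.4% of all genes tested, with a median difference of -0.26. The Hampshire libraries lay in between for 2 of 15, where 11.5% of all genes tested had that order. The median regulator had only 5.73 and 3.68 FPKM in Hampshire, against 5.33 and 3.85 FPKM in Mali, so regulators and subunits were not matched in level. TFAM, which packages and transcribes mitochondrial DNA, had 8.58 and 9.25 FPKM in Hampshire, compared with 11.6 and 21.5 FPKM in Mali. GABPB1, a subunit of the GA-binding protein that acts on respiratory genes, had 2.93 and 2.36 FPKM in Hampshire, compared with 1.88 and 1.04 FPKM in Mali. None of the genes in the tricarboxylic acid cycle, assembly and regulator lists passed limma, at a lowest adjusted p of 0.732, and none had an unadjusted p under 0.05.

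Contractile genes showed the order in part. All 12 fast-fibre genes were higher in Mali replicate 2 than in replicate 1, by a median of 1.45, and 7 of 12 had the Hampshire libraries in between. Slow-fibre genes, the markers of oxidative fibres, summed to 7290 and 6565 FPKM in Hampshire, against 2989 and 7452 FPKM in Mali, and 8 of 10 were higher in Mali replicate 2 than in replicate 1. The Hampshire libraries lay between the Mali libraries for 4 of the 10 slow-fibre genes. Log2 differences between the breeds, Hampshire minus Mali, were positive for 9 of 10, against 3982 of the 10075 genes tested. Red blood cell genes, of which 4 of 6 were tested, summed to 2584 and 3778 FPKM in Hampshire, against 90.1 and 5522 FPKM in Mali. The part of fibre type or blood content in the order of the respiratory genes was not tested. Median differences between the Mali libraries were 0.37 for 7 adipocyte, -0.087 for 8 endothelial, -0.072 for 7 smooth muscle and -0.08 for 7 macrophage genes. For the 4 red blood cell genes and for 8 fibroblast genes they were 3.19 and 1.44.

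Fibroblast genes shared the direction of the gap between the Mali libraries but not the order of the 4 libraries. All 8 were higher in Mali replicate 2 than in replicate 1, by a median of 1.44. None of the 8 had the Hampshire libraries in between. Fibroblast genes summed to 478 and 1443 FPKM in Hampshire, against 110 and 346 FPKM in Mali. Log2 differences between the breeds were positive for 8 of 8, against 3982 of the 10075 genes tested. Both Hampshire libraries were above both Mali libraries for 4 of 8, where 13% of all genes tested had that order. None of the marker genes of fibres, blood, fibroblasts or the other cell types passed limma without a block. With title suffix as a block, limma called 4 of 8 fibroblast genes higher in Hampshire, among them COL3A1 (adjusted p = 0.00089) and COL1A1 (adjusted p = 0.0034). The same fit, which called 2.59% of all genes tested, called 1 gene higher in Hampshire in each of 3 other lists of cell type markers. These were CNN1 of 7 smooth muscle genes (adjusted p = 0.0036), LYZ of 7 macrophage genes (adjusted p = 0.00078) and HBM of 4 red blood cell genes (adjusted p = 0.027). Log2 differences were positive for 5 and negative for 2 of the smooth muscle genes. They were positive for all 7 macrophage and all 4 red blood cell genes. The part of these cell types in the values of the respiratory genes was not tested.

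By position, the 71 genes lay on 17 autosomes and the X chromosome, with 12 on chromosome 2 and with NDUFA1 and NDUFB11 on the X chromosome. NDUFA1 had 81.7 and 87.4 FPKM in Hampshire, compared with 34.6 and 146 FPKM in Mali, in the same order as most autosomal members. In the RefSeq annotation 21 of the 71 genes overlap another gene, and for 15 that gene is protein coding. Without a stated strand setting, reads of such neighbours cannot be told apart, which applies to ATP5E, ATP5S, ATP5SL, NDUFA1, NDUFA7, NDUFS3 and SDHA among the genes with values given here.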

How the data were processed

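Per the labels' protocols, Trizol was used for RNA extraction and a TruSeq RNA kit for library preparation. HISAT2, Bowtie 0.12.2, Picard and Cuffdiff are named in the submitters' processing notes, without role or order. The FPKM values were computed per gene and library by the authors and deposited in a single table, together with the authors' p-values and q-values for the breeds. The build and the strand setting of the counting could not be taken from the labels or headers used here. Gene positions are those of the RefSeq Sscrofa11.1 table, which matched 99.8% of the rows of the deposited table, and 71 of the 71 genes described, by symbol, start and end.

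A gene was tested if 2 or more of the 4 libraries reached 1 FPKM. The test was run with limma 3.58.1 in R 4.3.3 on log2(FPKM + 1), Hampshire minus Mali, two-sided, with a mean-variance trend, Benjamini-Hochberg adjustment over all 10075 genes tested and a threshold of 0.05. Residual degrees of freedom were 2 and prior ones 5.24; a fold change on this scale understates that of low genes. All 71 genes passed the filter. Where a symbol had several rows, their FPKM were summed before testing, and 1 row lacking a gene name was not used. FPKM hold no read counts, so depth is unknown and no count test was run. Alternatives were 16 fits with another pseudocount, filter, scaling, trend, row choice or library left out, or with title suffix as a block, plus counts of gene orders under 4 scalings added after the data were seen.

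Most genes were named by a rule: those whose breeds did not overlap (up to 3 per direction and complex), the 2 with the highest mean per complex, succinate dehydrogenase and cytochrome c genes, tissue isoforms, and up to 2 genes per list by lowest unadjusted p. NDUFV1, NDUFS1, NDUFS3, NDUFA1, NDUFA6, NDUFA7, NDUFA9, NDUFA4, COX5B, ATP5G1 to ATP5G3, ATP5J2, ATP5S and ATP5SL fall outside it and were chosen after their values were seen. The rule for the members uses symbols alone, but it and the gene lists were chosen with earlier results of these data known. Promoter motifs were not analysed here.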

Additional observations from a re-analysis of the deposited data

Results flagged for a closer look

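The median log2 difference of the 71 genes, Hampshire minus Mali, was 0.93 between the libraries with no title suffix and -0.92 between those with suffix 1, so the breed difference took opposite signs in the 2 sets. The first set had 69 genes higher in Hampshire and the second 69 genes lower. The combination was also found for 445 of 905 other genes with a mean of at least 50 FPKM. Each set holds 1 library of each breed, so this difference between the sets was not tested, and what the suffix stands for is not stated in the labels.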

How the results depend on the processing

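In each of the 16 alternative fits 0 of the 71 genes passed the threshold. Over all genes, where limma called 0 (714 at an unadjusted p under 0.05), the count was 1 with a mean of at least 5 FPKM, 66 after rescaling to a common sum, 63 after the same without mitochondrial genes, and 0 to 6 when single libraries were left out, with the 6 without Mali replicate 2. No pairing is known from the labels; a replicate block by title suffix called 261 genes, and 50 with median-of-ratios size factors, with 27.4 prior degrees of freedom instead of 5.24. The Hampshire libraries lay between the Mali libraries for 52 genes as deposited, 47 with median-of-ratios size factors, 35 with quantile normalization, 26 after rescaling to a common sum and 31 after the same without mitochondrial genes. The shares of all genes tested with that order were 11.5%, 10.5%, 8.83%, 2.12% and 2.66% in the same settings. The cause of these changes was not tested.

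Leaving out single libraries moved the median log2 difference, Hampshire minus Mali, between -0.82 and 0.76 for complex I, -0.49 and 0.65 for complex II, -0.99 and 0.74 for complex III, -0.98 and 1.15 for complex IV, and -0.48 and 0.72 for complex V. Log2 differences of single genes that changed sign in this way ranged from -0.48 to 0.78 for ATP5B, -0.76 to 0.82 for ATP5E, -1.48 to 1.63 for COX7A1, -0.39 to 0.76 for COX7A2, -1.19 to 1.32 for COX7C, -1.58 to 1.80 for COX8H and -0.25 to 1.01 for CYCS. They ranged from -1.73 to 0.10 for NDUFB9, -2.23 to 0.75 for NDUFC1, -0.63 to 0.40 for SDHA, -0.27 to 0.63 for SDHB, -1.19 to 0.82 for SDHC, -0.35 to 0.67 for SDHD, -1.08 to 1.05 for UQCR10 and -0.90 to 0.43 for UQCRB.

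The scalings were likewise followed singly for the same 18 genes only. Among them, after rescaling to a common sum the difference turned negative for ATP5B (-0.19), ATP5E (-0.32), COX7A1 (-0.27), COX7A2 (-0.15), COX7C (-0.28), COX8H (-0.23), SDHB (-0.16) and SDHD (-0.18). Without mitochondrial genes in that sum it was -0.037 for ATP5E and -0.0017 for COX7C. With median-of-ratios size factors, with or without the block, it turned positive for SDHA (0.024) and UQCR10 (0.13), and with quantile normalization for SDHA (0.13), SDHC (0.067) and UQCR10 (0.014). Depth limits are unknown, since FPKM hold no counts.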
